A study of Mus musculus with 6 samples.

Results

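Cathepsins are the proteases of the lysosome, and their transcripts were followed here in Tregs with and without Zfp335, a zinc finger transcription factor. The genes chosen by name were the aspartic protease Ctsd, the cysteine proteases Ctsb, Ctsc, Ctsh, Ctsl, Ctss and Ctsz, the serine carboxypeptidase Ctsa, and Cstb, which encodes cystatin B, an inhibitor of cysteine cathepsins. All 9 were among the 13709 gene rows of the count table, each in 1 row, and all 9 passed the low-count filter. Ctsw was left out of the set and is given with the other lysosomal peptidases.

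CD4+YFP+CD25+ Tregs of 2-week-old C57BL/6 mice were profiled by RNA-Seq, with 3 samples from Foxp3Cre mice (WT) and 3 from Foxp3Cre Zfp335fl/fl mice (KO). Both genotypes carry Cre and YFP made from the Foxp3 locus, so deletion of the floxed gene depends on Foxp3 transcription. The labels name both lymph nodes and spleen as the source of the cells, and whether a sample came from 1 mouse or a pool is not stated. If the samples of a genotype were not from separate animals, p-values measure only a technical spread. KO mice become ill early in life, so loss of Zfp335 in these cells and the condition of the animals cannot be told apart.

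Cathepsins are made as inactive precursors, tagged with mannose 6-phosphate in the Golgi, and activated in the acidic lysosome, where they degrade proteins delivered by endocytosis and autophagy. Some have particular tasks in lymphocytes and antigen-presenting cells. Cathepsin C trims the dipeptides that keep granzymes inactive, cathepsin S cuts the invariant chain that blocks the groove of MHC class II molecules, and cathepsin A protects the glycosidases Glb1 and Neu1 in a complex. Many lysosomal genes carry a short palindrome called the CLEAR element near their start, to which TFEB and its relatives bind.

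Stretches of 28 bases upstream of the start of 3 of these genes are shown because they hold the CLEAR core, in Ctsd and Ctsa, or another motif, in Ctss. They were taken from RefSeq (GRCm38.p6), which had entries for 6 of the 9 genes, Ctsa with more than 1 start. The 250 bases before each start were searched on both strands. The capitals mark the CLEAR core TCACGTGA in Ctsd and Ctsa, and in Ctss the interferon-stimulated response core, which reads GAAA, any pair of bases, and GAAA again.
Ctsd, chr7:142387909-142387936, minus strand: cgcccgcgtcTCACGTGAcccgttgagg
Ctsa, chr2:164833745-164833772, plus strand: acaatgagcaaactgTCACGTGAtgcag
Ctss, chr3:95526756-95526783, plus strand: tctttaaatGAAACCGAAAtgaaagttc
The CLEAR core began at position -99 from the Ctsd start and at position -13 from the second Ctsa start. It was in 0.785% of all 32851 RefSeq windows of this length, and it contains the E-box CACGTG, which was in 6.02%. Neither was found before the starts of Ctsc, Ctsz and Ctss or before the first Ctsa start. Ctsl held an E-box without the CLEAR core. In GENCODE M21 the Ctsd stretch also lies in the 5′ UTR of a longer Ctsd transcript, and the Ctsa stretch lies in exons of Ctsa transcripts that start farther upstream. The interferon-stimulated response core began at position -21 from the Ctss start and was in 2.98% of all windows. The stretch of Ctss overlapped no annotated exon. These matches describe letters, and binding was not measured here.

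Total counts per sample lay between 32032631 and 40728419, so that a floor of 3 counts corresponded to 0.0747 to 0.0913 CPM. CPM, the usual counts per library total, rest here on totals adjusted by TMM, a scaling that equalizes the bulk of genes between libraries. The floor covers counting error only. Zfp335, the targeted gene, was at 101, 94.3 and 103 CPM in WT replicates 1 to 3 and at 37.0, 37.9 and 40.2 CPM in KO replicates 1 to 3, where the mean was 38.6% of that in WT. Gene counts do not separate the deleted part of Zfp335 from the rest. WT replicate 3 stood apart from the other WT samples. It was at -41.5 on the second principal component of all genes, which held 17.1% of the variance, where WT replicates 1 and 2 were at 19.3 and 22.7. The biological coefficient of variation was 0.263 in WT, 0.126 in WT replicates 1 and 2 alone, and 0.070 in KO. For named genes, calls that changed without WT replicate 3, and values that moved by over 1.5 times, are therefore given with and without it.

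Loss of Zfp335 was accompanied by higher transcript levels of 2 of the 9 genes, Ctsd and Ctsc. A call required a difference of more than 1.5-fold together with p under 0.05 and adjusted p under 0.1, where p came from edgeR's quasi-likelihood F-test and was adjusted by the Benjamini-Hochberg method over the 13594 genes tested. Of all genes tested 11.9% were called higher and 12.5% lower in KO, so 2 calls among 9 genes are close to this background. An adjusted p under 0.1 whatever the fold was reached by 5 members, beside 47% of all genes. No member was called lower by edgeR or by DESeq2, and 1, Ctss, was lower at an unadjusted p under 0.05. The log2 fold change of KO against WT was above 0 for 8 members and below 0 for 1, and its median was 0.26, compared with -0.04 over all genes tested. KO and WT values did not overlap for 5 members, as they did not for 53.8% of all genes, of which 26.2% had every KO sample above and 27.6% every KO sample below every WT sample.

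Ctsd encodes the main aspartic protease of the lysosome and lies on chromosome 7 (GRCm38, chr7:142375911-142388038, minus strand). Its span overlaps that of Gm49369, a protein-coding gene model on the same strand that was absent from the count table. Reads from that overlap cannot be told apart by strand. Ctsd was at 181, 189 and 204 CPM in WT and at 390, 384 and 384 CPM in KO. Every KO sample was far above every WT sample, and the KO samples were almost equal. The mean rose from 191 ± 11.3 to 386 ± 3.53 CPM (SD, n = 3 each), a 2.02-fold difference with a log2 fold change of 1.01 (SE 0.07, 95% interval 0.85 to 1.17, adjusted p = 5.27e-05, edgeR). Ctsd was called in all 15 other settings tried, with a log2 fold change between 0.98 and 1.07. It was also called when edgeR's glmTreat tested against a change of 1.5-fold itself (adjusted p = 0.00121).

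Ctsc encodes dipeptidyl peptidase I and lies on the same chromosome (chr7:88278085-88310888, plus strand). It was at 59.4, 63.1 and 70.9 CPM in WT and at 114, 125 and 122 CPM in KO. The groups were again well apart, and the lowest KO sample was far above the highest WT sample. The mean rose from 64.5 ± 5.86 to 120 ± 5.72 CPM (SD, n = 3 each), 1.87-fold, and the log2 fold change was 0.90 (SE 0.08, 95% interval 0.70 to 1.10, adjusted p = 0.000232, edgeR). It was called in all 15 other settings, between 0.84 and 0.97, and against a change of 1.5-fold with glmTreat (adjusted p = 0.0105).

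**Figure D1:**
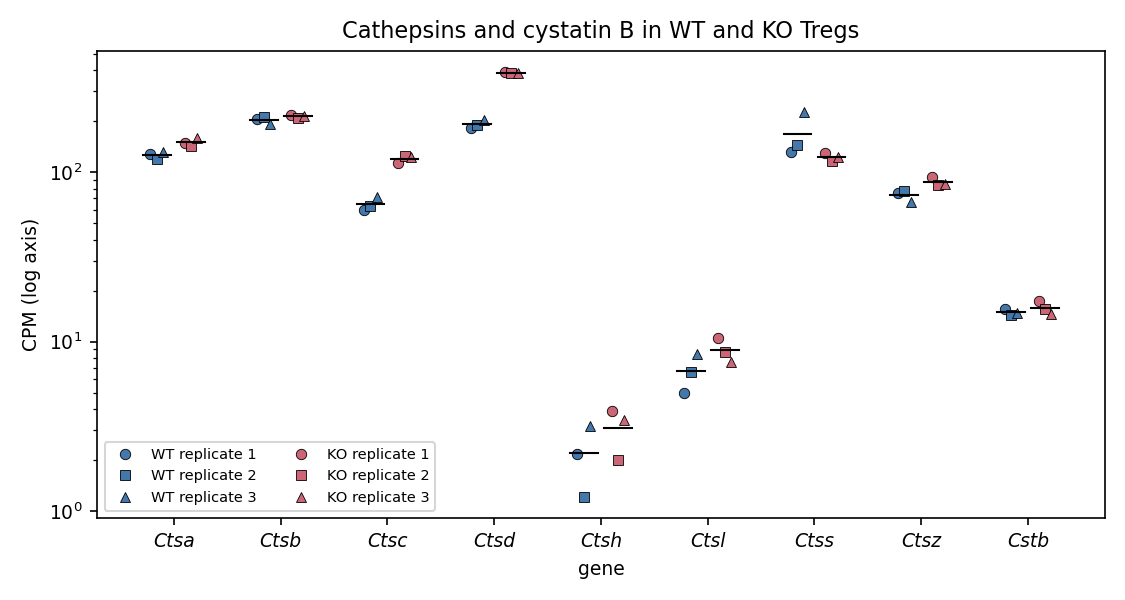
CPM (log axis) of the 8 cathepsin genes and of Cstb in each sample, with WT in blue, KO in red, a symbol per replicate and a black line at the mean of 3 samples. Ctsd and Ctsc stand higher in all KO samples, Ctss is highest in WT replicate 3, and Ctsb and Cstb overlap between genotypes.

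The serine carboxypeptidase gene Ctsa and the carboxypeptidase gene Ctsz were higher in every KO sample by less than 1.5-fold and were not called. Ctsa (chr2:164832873-164841032, plus strand) was at 128, 120 and 132 CPM in WT and at 149, 143 and 159 CPM in KO, and its log2 fold change was 0.24 (adjusted p = 0.0295, SE 0.07, edgeR). Its end is 50.8 kb from Zfp335 on chromosome 2, and its span overlaps that of Pltp on the other strand. Pltp was called higher and went from 0.307 to 3.98 CPM, and the mean of Ctsa differed by 23.4 CPM. The part of Pltp reads in the Ctsa difference was not tested. Ctsz (chr2:174427493-174439039, minus strand) was at 74.9, 77.2 and 66.7 CPM in WT and at 93.1, 84.2 and 84.9 CPM in KO, and its log2 fold change was 0.26 (adjusted p = 0.0374, SE 0.08, edgeR). It overlaps Nelfcd, on the other strand, which was at a mean of 54.8 CPM in WT and 68.4 in KO. Further overlaps are of Ctsa with Neurl2, Ctsc with Gm26522 and Ctsl with Gm47123, each on the other strand. The processed pseudogenes Gm49230 and Hmgb1-ps5 overlap Ctsl and Ctss on the same strand. Whether the counts used strand is not given in the sources used here, so reads of overlapping genes cannot be told apart. The values of Ctsa, Ctsz and the other members with overlaps are uncertain to that extent.

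Ctss, the gene of the invariant chain protease, was the member with a lower mean in KO. Ctss (chr3:95526786-95556403, plus strand) was at 132, 145 and 227 CPM in WT and at 130, 116 and 122 CPM in KO. All KO samples were below all WT samples, but WT replicate 1 and KO replicate 1 were almost level, and WT replicate 3 was 1.65 times the mean of the other WT samples. The log2 fold change was -0.45 (SE 0.19, 95% interval -0.90 to -0.01, adjusted p = 0.0981, edgeR), under 1.5-fold, so Ctss was not called. With WT replicate 3 left out the log2 fold change was -0.18 (adjusted p = 0.0394). Leaving out WT replicate 1 gave -0.60, which was called (adjusted p = 0.0431). The size of the Ctss difference thus rests on which WT samples are kept.

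The endopeptidase genes Ctsb and Ctsl, the aminopeptidase gene Ctsh and the inhibitor gene Cstb overlapped between genotypes and were not called. Ctsb (chr14:63122462-63145923, plus strand) was at 207, 212 and 193 CPM in WT and 217, 209 and 214 CPM in KO. Its log2 fold change was 0.06, with a 95% interval of -0.09 to 0.21 that lies within 1.5-fold on either side. Ctsb overlaps Fdft1, on the other strand, which was at 24.6 and 36.1 CPM. Cstb (chr10:78425669-78427622, plus strand) was at 15.6, 14.4 and 14.7 CPM in WT and 17.3, 15.7 and 14.5 CPM in KO, with a log2 fold change of 0.09 and an interval of -0.18 to 0.35. For these genes the interval allows at most a modest difference in either direction.

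Ctsl and Ctsh were the members with the fewest counts. Ctsl (chr13:64359337-64370890, minus strand) was at 5.0, 6.61 and 8.44 CPM in WT and at 10.5, 8.71 and 7.57 CPM in KO. Its log2 fold change was 0.42 (SE 0.23, adjusted p = 0.184, edgeR). Ctsh (chr9:90054152-90076089, plus strand) was at 2.17, 1.22 and 3.18 CPM in WT and at 3.89, 1.99 and 3.43 CPM in KO, and its log2 fold change was 0.50 (adjusted p = 0.383, SE 0.42, edgeR). In both genes WT replicate 3 was the highest WT sample, 1.45 and 1.88 times the mean of the other WT samples for Ctsl and Ctsh. Without it Ctsl was called higher at 0.62 (adjusted p = 0.015) and Ctsh at 0.86 (adjusted p = 0.0751), so that 4 members were called.

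**Figure D2:**
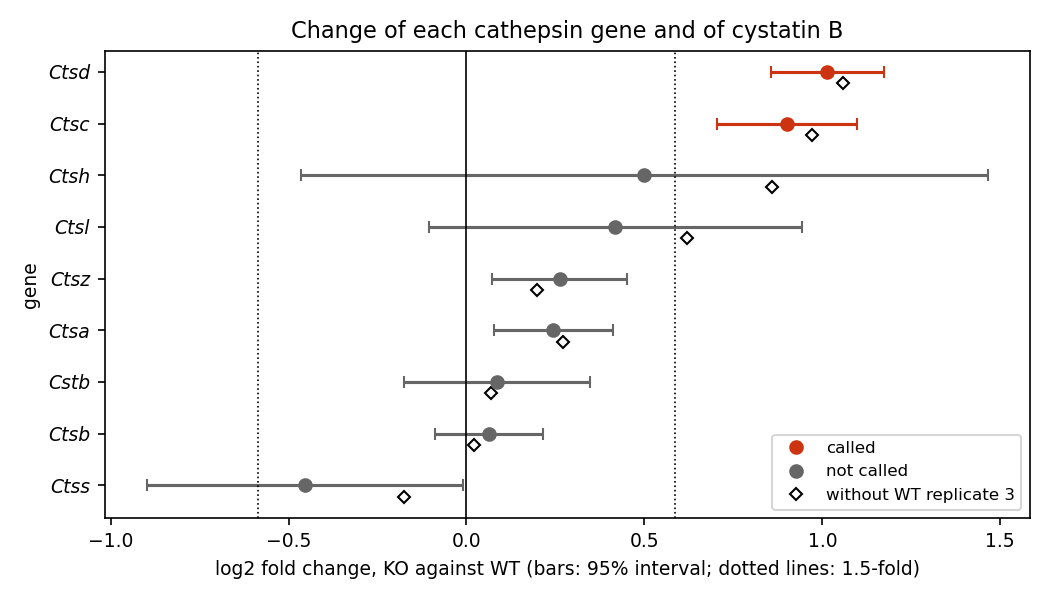
Log2 fold change of KO against WT for each gene (circles, bars for the 95% interval, n = 3 samples per genotype) and the same value without WT replicate 3 (open diamonds), with dotted lines at 1.5-fold. Ctsd and Ctsc, in red, were called at 1.01 and 0.90, Ctss moved from -0.45 to -0.18, and Ctsh and Ctsl passed the 1.5-fold line without WT replicate 3.

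Spread between samples differed among the members. In WT the coefficient of variation of CPM was 44.9% for Ctsh, 31.0% for Ctss and 25.8% for Ctsl, and from 4.33% to 9.09% for the other genes. In KO it was 31.9% for Ctsh, 16.4% for Ctsl and 5.77% for Ctss, and the smallest value was 0.915% for Ctsd. Across the 6 samples Ctsc and Ctsd had a Pearson r of 0.993 on log2 CPM, and Ctsb and Ctss one of -0.84. The points of these correlations share the libraries and the split by genotype. The genes most like Ctsd, which has the highest mean level per kilobase of the set, were found in the same way over the same 6 samples. Serpinb6b, Arhgap21, Hip1, Itga2 and Ifitm1 led with r from 0.9995 to 0.9998, but 924 of 9881 genes compared had r above 0.95.

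Which cathepsin transcript was most abundant differed between genotypes. Levels were compared between genes as counts per kilobase of transcript, scaled to the same total in each sample. The mean length of the transcripts of a gene was used. Mean and longest lengths were 1640 and 3646 bases for Ctsa and 2181 and 3220 for Ctsc, but equal for Ctsb and Ctsz. They were 2051 and 6168 bases for Ctsl and 872.5 and 1617 for Ctsh. The order of the genes and their shares therefore depend on the length used. In WT Ctss led at 228 ± 63.5, followed by Ctsd at 175 ± 4.93, Ctsa at 143 ± 7.24, Ctsz at 93.7 ± 9.36, Ctsb at 79.8 ± 5.84 and Ctsc at 54.6 ± 3.26 (SD, n = 3). Cstb was at 45.8 ± 3.25, Ctsl at 6.00 ± 1.36 and Ctsh at 4.63 ± 1.98 per kilobase. WT Ctss was above 94.8% and Ctsd above 92.4% of all genes with a known length, whereas Ctsh was above 27.5%. The levels of Ctsz and Ctsb overlapped in WT, as did those of Ctsl and Ctsh, and the other neighbors in this order did not overlap.

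In KO Ctsd led at 346 ± 3.76 per kilobase, and Ctsa at 166 ± 8.12 and Ctss at 164 ± 9.30 overlapped behind it. Ctsz at 110 ± 6.35 followed, then Ctsc at 100.1 ± 4.80 and Ctsb at 81.6 ± 1.59, which had changed places at mean lengths. The places of Ctsa, Ctsb and Ctsc, and the order of Ctsl and Ctsh, rest on the length used. Cstb at 47.6 ± 4.34, Ctsl at 7.89 ± 1.31 and Ctsh at 6.45 ± 2.05 kept their order at mean lengths, with Ctsl and Ctsh again overlapping. The share of Ctsd in the summed level of the 8 cathepsins was 22.8%, 23.0% and 21.1% in WT and 34.9%, 35.9% and 34.8% in KO. That of Ctss was 24.7%, 26.4% and 35.2% in WT and 17.4%, 16.1% and 16.6% in KO. Ctsc held 6.97 ± 0.164% in WT and 10.2 ± 0.686% in KO, and Ctsb held 10.2 ± 1.47% and 8.31 ± 0.0168%.

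**Figure D3:**
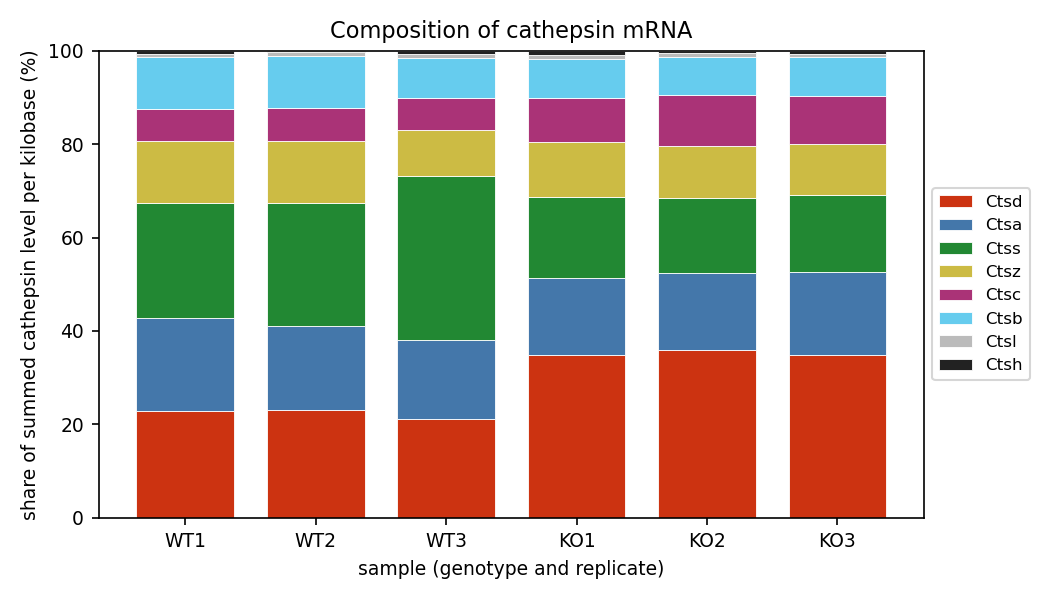
Share (%) of each gene in the summed level per kilobase of the 8 cathepsins, in each of the 6 samples. Ctsd, at the base of the bars, takes between 21.1% and 23.0% in WT and between 34.8% and 35.9% in KO, and Ctss is largest in WT replicate 3.

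Without WT replicate 3, the WT share of Ctss was 25.5% and that of Ctsd 22.9%, so the order of these genes in WT was kept by their means. The summed level of the 8 cathepsins was 749.5, 749.6 and 854 per kilobase in WT and 1001, 962 and 983 in KO, with all KO samples higher. The means were 784 ± 60.3 and 982 ± 19.6 (SD, n = 3 each), a ratio of 1.25. The mean log2 difference was 0.33 with mean and 0.32 with the longest transcript lengths. The summed cathepsins relative to Cstb were 15.1, 16.9 and 19.6 in WT and 19.2, 20.3 and 22.6 in KO, and the groups overlapped. Cystatin B inhibits cysteine cathepsins and not cathepsin D, and protein levels were not measured.

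Transcripts for sorting cathepsins to the lysosome differed in opposite directions. Gnptab, a subunit of the enzyme that builds the mannose 6-phosphate tag, was at 54.8, 58.7 and 53.2 CPM in WT and 124, 127 and 123 CPM in KO, higher by 1.16 on the log2 scale (SE 0.07, adjusted p = 2.8e-05, edgeR). Igf2r, the large receptor for the tag, was at 469, 454 and 452 CPM in WT and 235, 216 and 213 CPM in KO, with a difference of -1.05 on that scale (SE 0.07, adjusted p = 4.36e-05, edgeR). M6pr, the small receptor, was higher in every KO sample at a log2 fold change of 0.32 and was not called. Sort1, a sorting receptor that needs no tag, was called higher at 1.39 but was below 2 CPM in all samples, and its call was lost without any sample other than WT replicate 3 (1.08 to 1.52, adjusted p = 0.124 to 0.2, edgeR). Without WT replicate 3 it was 2.10 (adjusted p = 0.00413). In all, 2 of 6 genes of this list were called higher and 1 lower.

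Among 11 other lysosomal peptidases 1 was called higher and 3 lower, with a median log2 fold change of -0.28. Scpep1, a serine carboxypeptidase related to Ctsa, rose by 1.56 on the log2 scale, from 14.9, 13.4 and 13.3 to 43.0, 39.8 and 40.1 CPM. Ctsw, a cathepsin of cytotoxic lymphocytes, was at 155, 153 and 112 CPM in WT and 74.7, 67.2 and 69.7 CPM in KO (-0.99, adjusted p = 0.000835, edgeR). Ctsf (-2.04) and Dpp7 (-0.60) were also called lower, though the call of Dpp7 was lost at -0.48 when WT replicate 1 was left out, at -0.55 for WT replicate 2 and at -0.51 for KO replicate 3. Dpp7 was also not called with DESeq2 or RLE scaling (-0.58 each), GC and length offsets (-0.55) or the replicate block (-0.58). Lgmn, the asparaginyl endopeptidase that processes several cathepsins, was at 18.1, 18.4 and 34.9 CPM in WT and 21.9, 23.2 and 23.2 CPM in KO and was not called. Its sign turned with WT replicate 3, from -0.06 with it to 0.32 without it.

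Of 5 other cathepsin inhibitor genes 1 was called. Ctla2a, which resembles the propeptide of a cathepsin, was at 1.55, 1.83 and 6.94 CPM in WT and 11.7, 8.81 and 9.79 CPM in KO, a log2 difference of 1.56 (adjusted p = 0.0517, edgeR). The call of Ctla2a was lost without any sample other than WT replicate 3 (1.20 to 1.65, adjusted p = 0.1 to 0.147), and without WT replicate 3 the difference was 2.58 (adjusted p = 1.61e-07). Its close relative Ctla2b had 3, 15 and 66 counts in WT and 78, 105 and 61 in KO. At 1.37 (adjusted p = 0.248, edgeR), Ctla2b was not called except without WT replicate 3 (3.02, adjusted p = 0.000817). That last value rests on WT samples with 3 and 15 counts. The split of reads between the pair is uncertain. The cystatins Cst3 (0.24) and Cst7 (-0.11) were not called.

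Of the partners of cathepsin A, Neu1 was called lower and Glb1 was not called. Glb1 was at 46.2, 57.7 and 56.8 CPM in WT and 52.8, 52.5 and 55.4 CPM in KO. Neu1 went from 71.6, 64.0 and 81.3 to 43.7, 45.9 and 46.4 CPM (log2 fold change -0.67, SE 0.10, adjusted p = 0.00145, edgeR). Its call was lost with GC and length offsets (-0.58) and when glmTreat tested against 1.5-fold (adjusted p = 0.367). Of 38 hydrolases and activators 2 were called higher and 6 lower, with a median of -0.02. Arylsulfatase B, Arsb, was the gene with the smallest p and rose by 2.55, while Naglu (-1.10), Idua (-0.90) and Hexa (-0.73) were called lower.

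The membrane, proton pump and regulatory genes of the lysosome had calls in both directions as well. Of 20 lysosomal membrane proteins 1 was called higher, the channel Mcoln2 (1.79), and 3 lower, the arginine sensor Slc38a9 (-0.77), the channel Mcoln1 (-0.59) and Laptm4b (-1.34). The call of Mcoln1 was lost without WT replicate 1 (-0.49) or KO replicate 1 (-0.58), and with DESeq2 (-0.58), RLE scaling (-0.58) or GC and length offsets (-0.51). That of Laptm4b was lost without KO replicate 1 (-1.32) or KO replicate 3 (-1.21), and without WT replicate 3 Laptm4b was called at -0.86. Of 16 V-ATPase genes, which acidify the lysosome, Atp6v1a was called higher (0.97) and Atp6v0a1 lower (-1.06). Of 21 genes of the TFEB family and lysosomal mTORC1 signaling 1 was called higher and 3 lower, namely Lamtor4 (-0.75), the folliculin gene Flcn (-0.76) and Rragb (-0.66), the last not called without WT replicate 3 (-0.50), KO replicate 2 (-0.58) or KO replicate 3 (-0.58). Tfec was the one called higher, with 0, 7 and 2 counts in WT and 32, 20 and 34 in KO. Tfeb itself (-0.08, adjusted p = 0.572, edgeR) and Tfe3 (-0.03, adjusted p = 0.867) were not called, and their signs changed with the setting. Over these 7 lists together 26 of 117 genes were called, 22.2%, beside 24.4% of all genes tested.

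**Figure D4:**
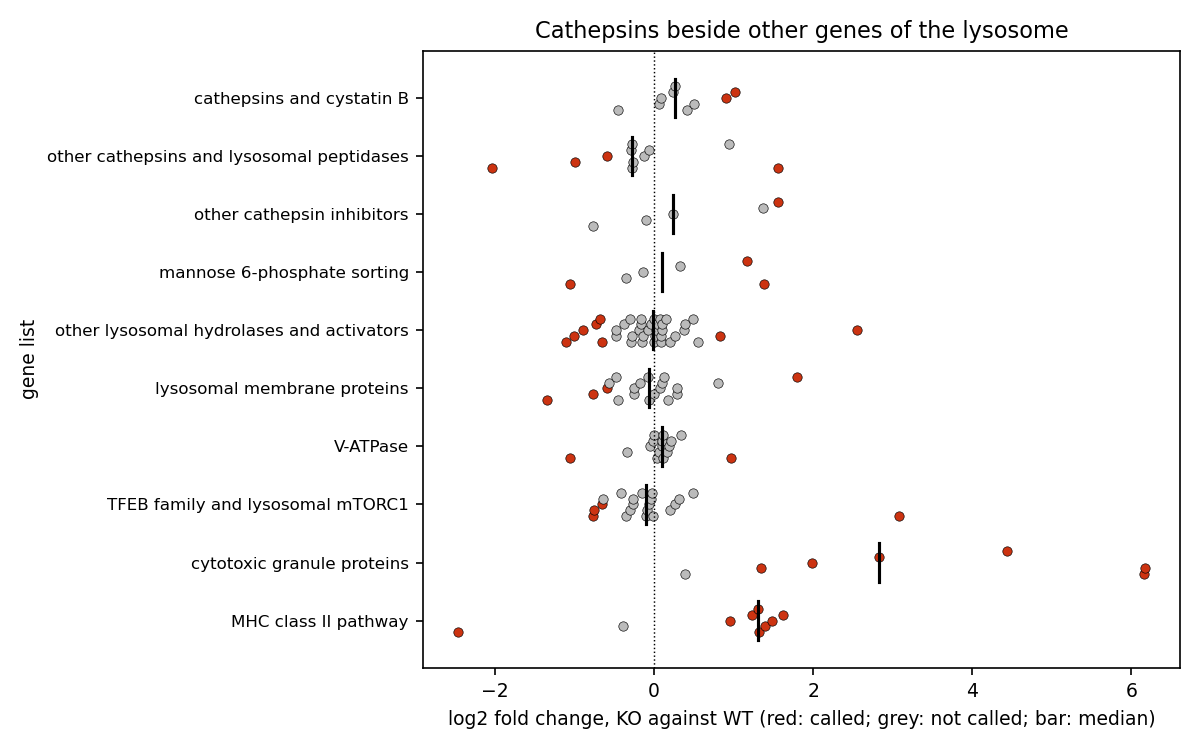
Log2 fold change of KO against WT for each tested gene of 10 lists, with called genes in red, others in grey and a bar at the list's median. The values of lysosomal lists lie on both sides of 0, whereas 6 of 7 granule genes and 7 of 9 MHC class II genes were called higher and Gzmk, at the right edge, had 0, 5 and 0 counts in WT.

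The lists of cytotoxic granule and MHC class II genes, pathways in which cathepsins take part, held more calls, beside 11.9% of all genes called higher. Of 7 cytotoxic granule genes 6 were called higher, with a median log2 fold change of 2.83. Granzyme A, Gzma, which cathepsin C activates, was at 1.96, 1.98 and 0.511 CPM in WT and 108, 109 and 103 CPM in KO. Granzyme B, Gzmb, went from 12.1, 12.2 and 36.8 to 437, 446 and 438 CPM (log2 fold change 4.44, SE 0.45, adjusted p = 0.000316, edgeR). Gzmb was highest in WT replicate 3 among the WT samples, and without that sample its log2 fold change was 5.18 (SE 0.07). Perforin, Prf1, which forms the pores through which granzymes enter, went from 2.23, 3.81 and 2.73 to 22.3, 19.6 and 20.3 CPM. Gzmk had 0, 5 and 0 counts in WT and 133, 157 and 135 in KO.

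Of 9 genes of the MHC class II pathway 7 were called higher and 1 lower, with a median of 1.30. Cd74, the invariant chain that cathepsin S cuts, was at 47.6, 52.1 and 72.5 CPM in WT and 103, 119 and 113 CPM in KO, a log2 difference of 0.96 (SE 0.15, adjusted p = 0.00222, edgeR) and of the opposite sign to Ctss. H2-DMa (1.32) and H2-DMb1 (1.23), which load peptides in the lysosome, were called higher, the latter with a close copy that could share its reads. H2-Ob, a chain of the inhibitor of peptide loading, was called lower, from 37.8, 38.6 and 48.5 to 8.70, 7.39 and 6.50 CPM (-2.47).

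Many of these genes are abundant in macrophages and other myeloid cells, so marker genes of other cells are given beside them. Of 11 macrophage and monocyte markers tested 9 were called higher, and 8 without WT replicate 3. Over all genes tested 11.9% were called higher and 12.5% lower, the background for the marker counts here and below. Their summed level was 26.4, 30.2 and 16.5 CPM in WT and 68.7, 64.1 and 65.9 CPM in KO. Csf1r was at 1.49, 2.68 and 0.391 CPM in WT and 7.23, 7.29 and 6.27 CPM in KO, and Lyz2 at 12.7, 13.9 and 4.30 and at 20.6, 18.6 and 19.3 CPM. Lyz2 was called higher at 0.92 (adjusted p = 0.0863, edgeR). Without WT replicate 3 Lyz2 was at 0.55 (adjusted p = 0.00088, edgeR), under 1.5-fold and so not called. Its call was also lost without any other sample except WT replicate 2. Of 12 listed markers of these cells 11 were in the count table, whose smallest row sum was 60. WT replicate 3 had the lowest sum of these markers in WT and, of the WT samples, the highest Ctsd, Ctsc, Ctsa, Ctss, Ctsh and Ctsl and the lowest Ctsb and Ctsz. The part of such cells in the cathepsin differences was not tested. In bulk samples more cells of a type and more RNA per cell cannot be told apart.

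Summed levels of neutrophil markers were 0.0543 to 0.578 CPM in WT and 4.51 to 7.25 CPM in KO. NK cell markers summed to 5.05 to 8.44 CPM in WT and 30.0 to 30.9 CPM in KO. Dendritic cell markers summed to 12.6 to 15.0 CPM in WT and 22.1 to 23.4 CPM in KO. In this order, 3 of 3, 4 of 5 and 1 of 7 tested markers were called higher. The lists named 9, 6 and 8 markers, and those not tested were absent from the count table. The neutrophil sum of WT replicate 1 was below its floor of 0.0815 CPM, and that of WT replicate 3, 0.12 CPM, was near its floor of 0.0901 CPM. Markers this low in WT could pass the low-count filter only through KO, which by itself favors calls higher. B cell markers summed to 22.9 to 27.3 CPM in WT and 21.8 to 23.2 CPM in KO, with 1 of 8 called higher, Cd22 (1.01), and 1 lower, Cd79b (-1.26). CD8 T cell markers summed to 9.32 to 13.2 CPM in WT and 12.0 to 12.7 CPM in KO, with 1 of 2 called higher, Cd8a (0.997), and erythroid and platelet markers to 23.3 to 101 and 43.2 to 49.8 CPM. None of the 5 erythroid and platelet markers was called by edgeR, where none had an unadjusted p under 0.05, and 1 was called lower by DESeq2 and 3 by edgeR without WT replicate 3. The sum of stromal and endothelial markers was lower in KO, at 194 to 208 CPM in WT and 137 to 146 CPM in KO. Of 8 listed 4 were tested, of which 3 were lower and 1 higher, and 1 was called lower, Col1a2 (-2.07). Treg and CD4 T cell markers were at 5130 to 6060 CPM in WT and 4150 to 4230 CPM in KO. Foxp3 was called lower at -0.88 (adjusted p = 0.0122, edgeR). Without WT replicate 3 Foxp3 was still lower at -0.57 (adjusted p = 1.27e-06, edgeR), but under 1.5-fold and so not called. All 8 cell cycle genes were called higher, and their sum was 1296, 1287 and 696 CPM in WT and 3568, 3441 and 3400 CPM in KO, again lowest in WT replicate 3. The part of these lists in the cathepsin differences was not tested either.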

How the data were processed

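RNA-Seq of 3 WT and 3 KO Treg samples from the study was analyzed. Its methods state that SOAPnuke filtered the reads, HISAT2 aligned them to mm10 and StringTie gave gene levels. The authors deposited whole-number counts per gene without normalization. How whole numbers were obtained, the annotation and the strand setting are not given in the sources used here. The smallest row sum was 60, so genes with few counts were absent from the table.

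Genes with few counts were removed with filterByExpr (minimum count 10), libraries were scaled by TMM, and KO was compared with WT using edgeR 4.0.16 (glmQLFit, glmQLFTest, two-sided) in R 4.3.3 with no covariate. SE is the log2 fold change divided by the square root of F, and intervals use the t quantile of the fit. Levels per kilobase used mean transcript lengths of GENCODE M21, known for 97.87% of symbols. Positions are from GENCODE M21 on GRCm38, which mm10 denotes. Correlations and principal components used log2 of CPM plus 0.5. The procedure was tested on simulated counts.

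Members and lists were chosen with earlier results of these data known. Named genes are the members, Zfp335, up to 4 called genes of each list with the smallest p, and direct partners of cathepsins (such as Lgmn, Neu1, Tfeb, Cd74). Overlapping genes, called or abundant marker genes and Foxp3 were named for the limits they set. Alternatives were DESeq2 1.42.0, RLE scaling, library totals, no filter, at least 10 counts in every sample, other cutoffs, GC and length offsets, a replicate block, and leaving out each sample.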

Additional observations from a re-analysis of the deposited data

How the results depend on the processing

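Ctsd and Ctsc were called, and Zfp335 was called lower, in all 15 alternatives. With an adjusted p under 0.05 and no fold cutoff, 5244 genes were called (2610 higher and 2634 lower) in place of 3318 (1618 and 1700), 4 members were called higher, with Ctsa and Ctsz added, and 32 in place of 18 genes of the other lists were called lower. glmTreat called 1686 genes, 941 of them higher and 745 lower, and 8 genes of the other lists lower. It ended the calls of Neu1, Dpp7, Ctla2a, Sort1, Hexa, Mcoln1, Laptm4b, Lamtor4, Flcn, Rragb, Foxp3 and Lyz2. At least 10 counts in every sample removed Ctla2b, Tfec and Gzmk from the test. Without WT replicate 2, whose counts of Gzmk and Tfec were the highest in WT, the fitted values went from 6.18 to 10.1 for Gzmk and from 3.08 to 4.60 for Tfec. Leaving out each sample gave 2867 to 3667 called genes and 2 to 4 members called higher (4 without WT replicate 3, with Ctsh and Ctsl) and 0 to 1 lower (1, Ctss, without WT replicate 1). Signs of genes near 0 turned. Lgmn was at 0.0063 with the replicate block and from -0.23 to 0.32 (without WT replicate 3) when samples were left out. Glb1 was at -0.037 with library totals and from -0.095 to 0.053 when samples were left out, -0.023 without KO replicate 3. Tfeb was at 0.078 with GC and length offsets and from -0.14 to 0.0020 when samples were left out. Tfe3 was at 0.075 with those offsets and from -0.12 to 0.075, 0.0099 without KO replicate 3. The cause was not tested.

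Deviations from the group means were not shared between WT and KO samples of one number (mean r 0.029), so the numbers were not taken as pairs. With the replicate block 3190 genes were called, Ctsd at 1.02 and Ctsc at 0.90 included. At 3 counts, the floor is far below the level of each member. In WT it bears, among others, on Gzmk, Tfec, Ctla2b and the neutrophil markers.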
